A study of Homo sapiens with 6 samples.

Results

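A set of 10 genes of interleukin 6 (IL6) signaling was followed in BT-549 cells, a human triple negative breast cancer line, treated with adipocyte conditioned medium (ACM) or kept in unconditioned medium (UCM). Members were taken as a fixed list and matched by symbol among the 63140 genes quantified. They comprise the ligands IL6, LIF, IL11 and CSF3, the receptor chains IL6R, IL6ST, OSMR and LIFR, the transcription factor STAT3 and its feedback inhibitor SOCS3. Of these, 8 were expressed highly enough to be tested, among 14451 genes tested in all. IL11 and CSF3 were too low to be tested and are described by their counts. The 6 libraries, 3 of ACM and 3 of UCM, came from wild-type BT-549 cells without a transgene after 24 h of treatment in 6-well plates. ACM had been collected from OP9 mouse stromal cells differentiated into adipocytes in a medium with insulin and oleate. The labels give it at 50% whereas the study's supplement describes it as undiluted, and the formula of UCM is not given in the sources used here. An effect of adipocyte secretions therefore cannot be told apart from one of base medium, serum, insulin or oleate. Nothing states that the replicates came from separate cell passages, so p-values measure the spread between these wells, which may be technical.

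Cytokines of this family act through receptors that contain gp130, the protein encoded by IL6ST. IL6 binds IL6R, IL11 binds IL11RA, LIF binds LIFR, and oncostatin M acts through OSMR or LIFR, each in a complex with gp130. Associated JAK kinases then phosphorylate STAT3, which induces target genes including SOCS3, an inhibitor of the same receptor complexes. CSF3, also called G-CSF, is a related helical cytokine that signals to STAT3 through its own receptor, CSF3R. In breast tumors IL6 is known as a cytokine made by both stromal and cancer cells, and triple negative lines often secrete it.

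Expected counts, the reads that RSEM assigned to a gene, summed to between 17135288 and 21053257 per library. In a principal component analysis, conditions separated on the first component (39.8% of the variance). There, ACM replicate 2 lay farthest from UCM, at -36.4 against -16.5 and -14.7 for ACM replicates 1 and 3. On the second component (24.8%), replicate 1 of both conditions stood apart from the other 4 libraries. These 2 libraries also had the highest shares of counts from mitochondrial genes, at 3.84% in ACM and 3.52% in UCM, against 2.12% to 2.96% in the others. Mesenchymal markers summed to 4557 to 5350 TPM, a level scaled for gene length and library size, across libraries. Of 8 epithelial markers, 7 stayed under 1 TPM in every library, so the epithelial origin given for the line was not seen in its markers. ESR1 and PGR, which encode the estrogen and progesterone receptors, had no counts in any library, and with ERBB2 their list summed to 26.5 to 28.5 TPM in ACM and 25.5 to 32.4 TPM in UCM. Of 7 adipocyte markers, 6 were under 1 TPM in every library. The adipocyte hormones ADIPOQ and LEP were at 0 throughout, and the list summed to 24.2 to 25.6 TPM in ACM and 30.0 to 32.6 TPM in UCM, nearly all from ADIPOR2. Differences in RNA per cell and in the share of a cell type cannot be told apart in such bulk libraries.

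IL6 and OSMR rose in ACM, and the other 6 tested genes did not pass the test. IL6 increased 6.74-fold and OSMR 1.71-fold, with 95% confidence intervals of the log2 fold change of 1.61 to 3.89 and 0.58 to 0.96. By edgeR's quasi-likelihood test at an adjusted p-value of 0.05 or less, 2 of 8 were called higher, where 3.35% of all tested genes were called higher. None was called lower, against 2.21% of all tested genes, with 0 also lower at an unadjusted p-value of 0.05 or less (11.5% of tested genes) and 0 by DESeq2 (3.07%). One member, IL6R, was lower by tests that account for transcript length, as described with that gene. In CPM, counts scaled to library size, every ACM library lay above every UCM library for IL6 and OSMR, an arrangement found in 13.9% of the genes tested, and the reverse arrangement (15.1%) was found for none of the 8. At the thresholds of the study, an unadjusted p-value of 0.05 or less and a log2 fold change of at least 0.58, the same 2 genes were higher (4.12% of tested genes) and none was lower (1.71%). The median log2 fold change of the 8 genes was 0.13, and that of all tested genes was -0.01.

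**Figure D1:**
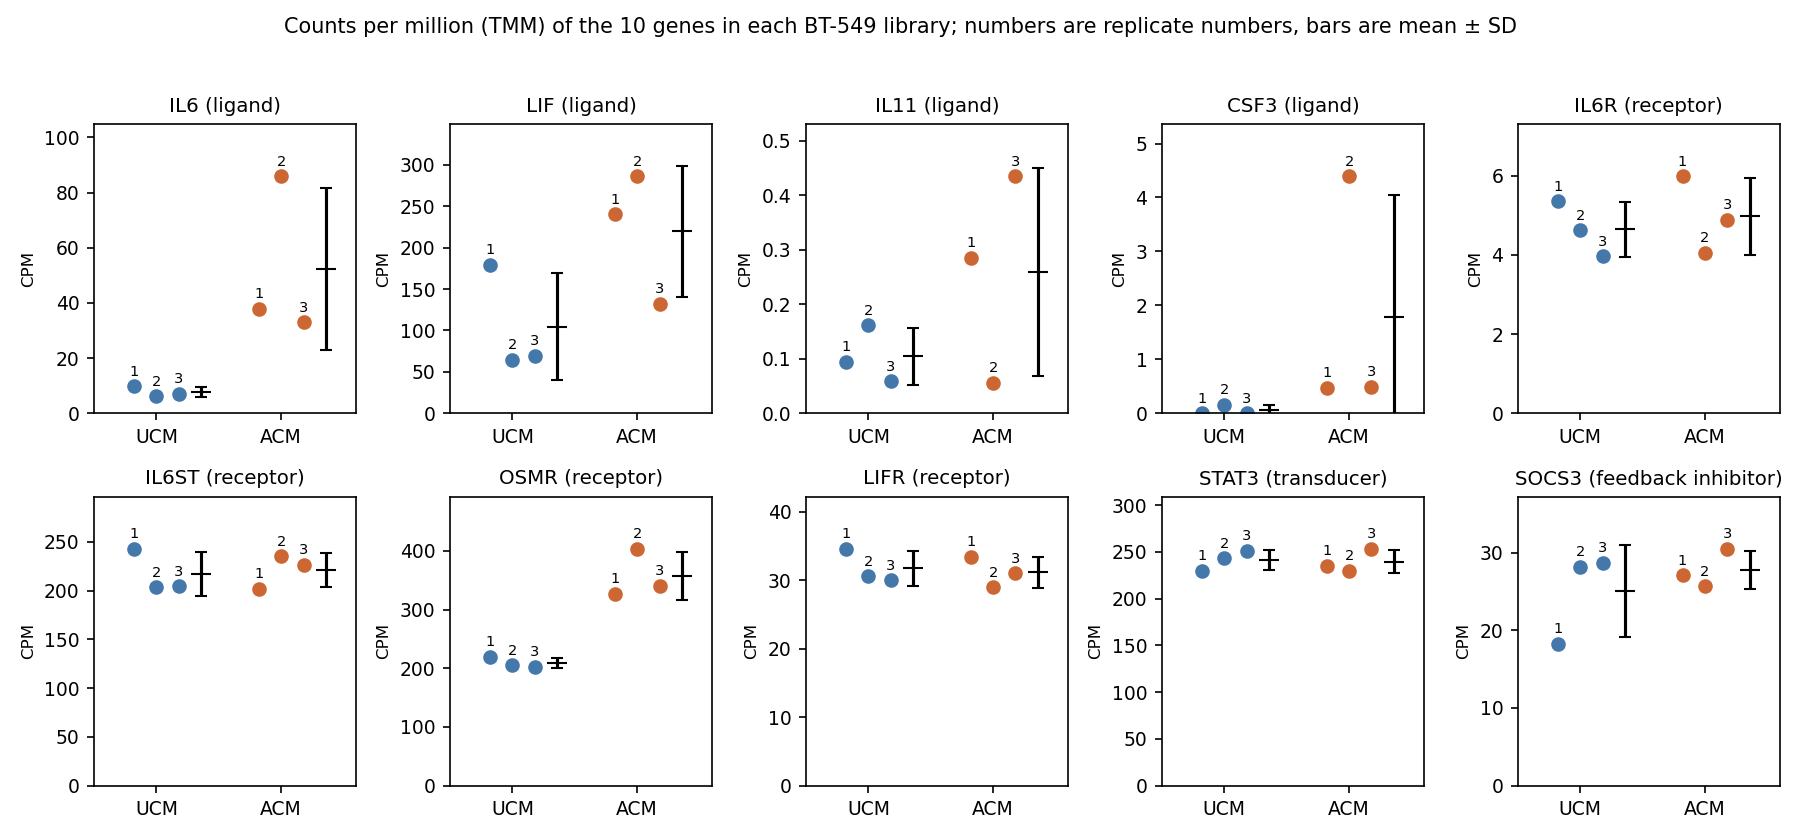
CPM of each of the 10 genes in the 6 libraries, one panel per gene with its own linear axis. Points are single libraries of ACM and UCM, numbered by replicate, with bars for the mean and SD of each group (n = 3), cut at 0 for CSF3. ACM and UCM points are separate for IL6, OSMR and CSF3, and ACM replicate 2 is the highest library for IL6, LIF, OSMR and CSF3.

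Promoter sequences are shown for the 2 genes that rose, from RefSeq on GRCh38.p14. Each runs from 250 bases before the transcription start to 50 bases after it, on the plus strand. Capitals mark matches to 4 motifs searched on both strands: the STAT palindrome (TTCNNNGAA), the AP-1 site (TGANTCA), the C/EBP site (TTGCNNAA) and the NF-kB site. The IL6 window is chr7:22726950-22727249, and the OSMR window is chr5:38845762-38846061.
IL6: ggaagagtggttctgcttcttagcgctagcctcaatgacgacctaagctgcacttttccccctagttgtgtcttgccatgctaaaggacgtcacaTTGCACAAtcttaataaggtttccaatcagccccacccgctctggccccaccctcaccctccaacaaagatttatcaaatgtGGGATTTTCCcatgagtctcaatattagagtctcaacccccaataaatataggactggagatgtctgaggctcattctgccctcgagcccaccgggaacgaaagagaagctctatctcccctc
OSMR: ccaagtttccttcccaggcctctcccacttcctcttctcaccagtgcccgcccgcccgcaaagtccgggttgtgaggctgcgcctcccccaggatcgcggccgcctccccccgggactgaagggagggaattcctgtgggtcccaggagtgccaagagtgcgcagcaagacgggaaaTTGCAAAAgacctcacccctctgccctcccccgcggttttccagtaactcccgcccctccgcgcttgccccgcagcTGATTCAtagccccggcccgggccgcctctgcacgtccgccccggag

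In the IL6 window a C/EBP match begins 155 bases before the start, and an NF-kB match begins 73 bases before it. The OSMR window holds a C/EBP match that begins 73 bases before the start and an AP-1 match at positions 4 to 10 after it. None of these matches overlap. C/EBP matches occurred in 10.46% of 35116 promoters of that length, NF-kB matches in 5.909%, AP-1 matches in 7.709% and STAT matches in 7.657%. Windows were found for 8 of the 10 genes, in 11 windows, of which 6 held any match. STAT matches were present in 2 windows of LIFR, AP-1 matches in the windows of IL11 and IL6R, and a C/EBP match in 1 window of LIFR. Sequence matches describe these windows, and binding was not measured.

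IL6 encodes the founding cytokine of the family and lies at chr7:22725884-22732002 (this and the other gene positions are those of GENCODE 44 on GRCh38). Replicates 1 to 3 of ACM held 797, 1525 and 608 expected counts of IL6, and replicates 1 to 3 of UCM held 207, 115 and 122. Scaled to library size, this became 37.9, 85.9 and 33.0 CPM under ACM, compared with 9.81, 6.18 and 7.11 CPM under UCM. All 3 ACM libraries were above all 3 UCM libraries, and ACM replicate 2 was more than 2-fold above the other ACM libraries. This difference had a log2 fold change of 2.75 (SE 0.46, adjusted p = 0.0335 from edgeR). Without ACM replicate 2, the log2 fold change was 2.20, with an adjusted p-value of 0.00148. The call was lost on leaving out any UCM library, with adjusted p-values of 0.0945, 0.169 and 0.179 without UCM replicates 1, 2 and 3 and log2 fold changes of 2.98, 2.62 and 2.71. Without replicate 1 of both conditions, the libraries that stood apart on the second component, it was 3.17 with an adjusted p-value of 0.140. Per length, mean IL6 levels were 93.7 ± 50.5 TPM with ACM and 11.6 ± 2.22 TPM with UCM (SD, n = 3). Its effective length, the mean usable length of the transcripts that RSEM found in use, was 784 ± 43.3 bases in ACM and 947 ± 65.2 bases in UCM, without overlap.

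Among the markers of other cell types, CD68 rose and ADIPOR2 fell in ACM. CD68, a lysosomal protein used as a macrophage marker, had mean levels of 19.1 ± 8.87 CPM with ACM and 5.58 ± 0.919 CPM with UCM (SD, n = 3). Its log2 fold change was 1.76 (SE 0.34, adjusted p = 0.0335 from edgeR). Replicates 1 to 3 of ACM were at 12.1, 29.1 and 16.0 CPM, so replicate 2 was the highest here too. Fits with a library left out were not examined for CD68 or ADIPOR2. The list of 6 immune markers summed to 12.9 to 31.0 TPM in ACM and 6.16 to 8.38 TPM in UCM. The other 5 stayed under 1 TPM in every library, and CD3E was at 0 throughout. Here PTPRC, the pan-leukocyte antigen CD45, lay between 0.06 and 0.18 TPM. ADIPOR2, an adiponectin receptor in the adipocyte list, was at 63.8 ± 0.781 CPM with ACM and 79.0 ± 1.24 CPM with UCM (SD, n = 3), a log2 fold change of -0.31 (adjusted p = 0.0259 from edgeR). Whether the levels of CD68 or ADIPOR2 bear on that of IL6 was not tested.

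LIF, the leukemia inhibitory factor, lies at chr22:30240453-30246759 and was the ligand with the most reads. ACM libraries held 5058, 5081 and 2434 counts of LIF, and UCM libraries held 3785, 1203 and 1191. After scaling, ACM gave 240, 286 and 132 CPM, while UCM gave 179, 64.7 and 69.4 CPM. Groups overlapped because UCM replicate 1 exceeded ACM replicate 3. LIF had a log2 fold change of 1.07 (SE 0.55, adjusted p = 0.342 from edgeR), with a 95% confidence interval of -0.39 to 2.53. Without UCM replicate 1 it was 1.72, with an adjusted p-value of 0.106, and without replicate 1 of both conditions it was 1.65, with an adjusted p-value of 0.209. The data therefore did not resolve whether LIF differed, and the interval includes changes as large as that of OSMR.

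CSF3, a granulocyte growth factor at chr17:40015361-40017813, was close to undetected in UCM. ACM libraries held 10, 78 and 9 counts of CSF3, while UCM libraries held 0, 3 and 0, so that 97 counts stood against 3. Every ACM library was above every UCM library, and most ACM counts came from replicate 2. The ratio of counts, scaled for depth, was 32.1 with an exact 95% interval of 10.7 to 159, which covers counting error only. Without ACM replicate 2 it was 9.13 (2.69 to 48.2). The difference in CPM had an exact two-sided permutation p-value of 0.1, the smallest that 3 against 3 libraries allow. When genes with at least 1 count in total were tested, CSF3 had an adjusted p-value of 3.20e-06 from edgeR. Such values depended strongly on the filter. In the same fit the adjusted p-value of OSMR fell from 0.00219 to 2.02e-19, while that of IL6 rose from 0.0335 to 0.0841.

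IL11, a cytokine that signals through IL11RA and gp130, lies at chr19:55364382-55370463 and was scarcely detected. The 3 ACM libraries held 6, 1 and 8 counts and the 3 UCM libraries 2, 3 and 1, so the groups overlapped. The depth-scaled ratio was 2.49 with an exact 95% interval of 0.911 to 7.82, and 3.36 (1.21 to 10.7) without ACM replicate 2. The exact two-sided permutation p-value for the difference in CPM was 0.4, so no difference was detectable at this depth.

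Among the receptors, OSMR rose and the shared chain gp130 did not pass the test. OSMR, the signaling chain of oncostatin M and of interleukin 31, lies at chr5:38845858-38945596. ACM libraries held 6875, 7167 and 6272 counts of OSMR, compared with 4634, 3825 and 3475 for UCM. After scaling, ACM gave 327, 404 and 341 CPM, while UCM gave 220, 206 and 203 CPM. Groups were well separated and spread little, with the lowest ACM library above the highest UCM library. OSMR had a log2 fold change of 0.77 (SE 0.09, adjusted p = 0.00219 from edgeR). It remained between 0.67 and 0.88 in each of 15 alternative analyses, with adjusted p-values of 0.0131 or less. Without replicate 1 of both conditions it was 0.88, with an adjusted p-value of 0.000247.

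IL6ST, which encodes gp130, lies at chr5:55935095-55995022. It had 202, 235 and 227 CPM in ACM and 243, 204 and 205 CPM in UCM, with overlapping groups. Its log2 fold change was 0.03, with a 95% confidence interval of -0.17 to 0.22 (adjusted p = 0.889 from edgeR). LIFR, the receptor chain for LIF at chr5:38474668-38608354, had 33.4, 29.0 and 31.0 CPM in ACM and 34.6, 30.5 and 30.0 CPM in UCM. These groups also overlapped. For LIFR the log2 fold change was -0.03, with an interval of -0.24 to 0.19 (adjusted p = 0.902). For both genes the interval excludes a change as large as that of OSMR.

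**Figure D2:**
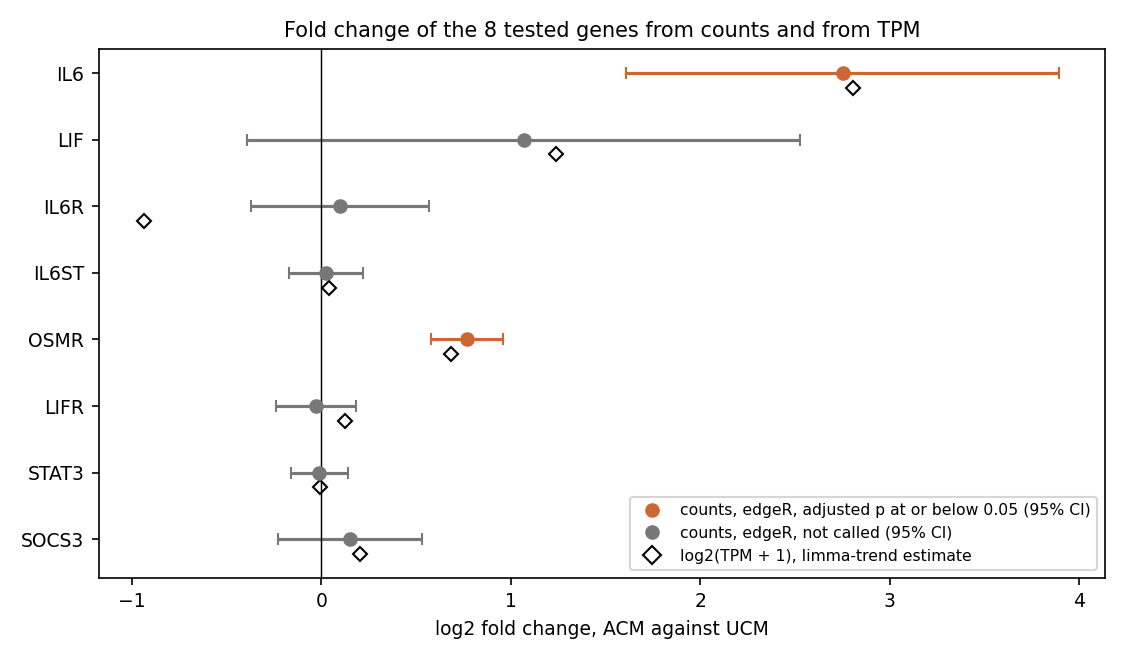
Log2 fold change of ACM against UCM for the 8 tested genes, from edgeR. Circles are estimates from counts with lines for their 95% confidence intervals, orange where the adjusted p-value was 0.05 or less, and open diamonds are limma-trend estimates on log2(TPM + 1). IL6 at 2.75 and OSMR at 0.77 are the genes called higher from counts, LIF has the widest interval, and for IL6R the diamond at -0.93 lies outside the interval from counts.

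IL6R encodes the chain that binds IL6 itself, at chr1:154405193-154469450, and its reads and its length gave different answers. ACM libraries held 126, 72 and 90 expected counts of IL6R and UCM libraries 113, 86 and 68, with overlapping groups. Tested on counts, the log2 fold change was 0.10 (SE 0.21, adjusted p = 0.828 from edgeR), with a 95% confidence interval of -0.37 to 0.57. In TPM, by contrast, IL6R was 1.55, 1.06 and 1.29 in ACM and 2.86, 3.57 and 3.74 in UCM. All ACM libraries were below all UCM libraries in TPM, and the ratio of the means was 0.383. These units differ by the effective length, which was 5485, 5286 and 5488 bases in ACM and 2716, 1830 and 1519 bases in UCM. Read numbers were thus similar, while the mean usable length of the transcripts in use was longer in ACM than in UCM.

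Effective length was higher in every ACM library for IL6R and OSMR among the 8 tested members (5.49% of tested genes) and lower in every ACM library for IL6 (3.7%). The OSMR shift was small, with a ratio of 1.04, whereas that of IL6R was 2.68. The annotation lists 8 transcripts of IL6R, of 527 to 5764 bases. An effective length higher in every ACM library and at least 2-fold in the mean was found in 20 genes (0.138% of those tested). With limma-trend on log2(TPM + 1), IL6R was lower in ACM by a log2 difference of -0.93 (adjusted p = 0.0299), where 0.837% of tested genes were called lower. With effective lengths as offsets in edgeR, an alternative added after the data were seen, the log2 fold change was -1.35 (adjusted p = 0.0223), where 0.927% were called lower. Exact two-sided permutation p-values for the differences in length and in TPM were each 0.1, the smallest possible. Between 68 and 126 reads per library lay behind these lengths, and transcript-level values were not used here, so the transcripts involved cannot be named.

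**Figure D3:**
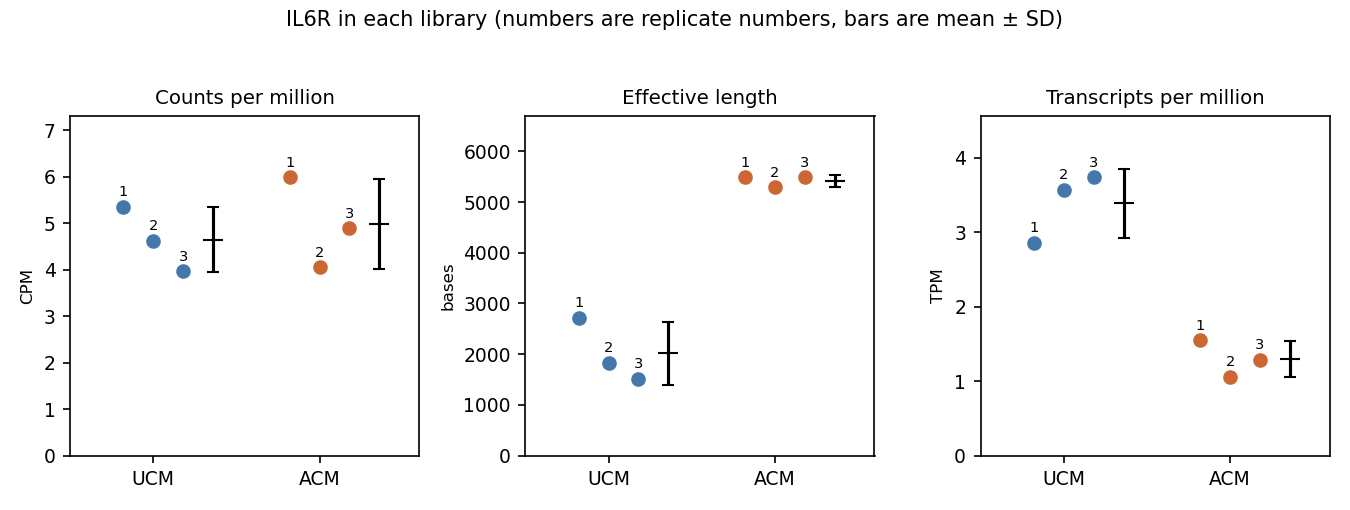
CPM, effective length in bases and TPM of IL6R in the 6 libraries, on linear axes. Points are single libraries with the mean and SD of each group (n = 3). CPM values overlap between ACM and UCM, effective length is higher in every ACM library and TPM is lower in every ACM library.

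Downstream of the receptors, neither STAT3 nor SOCS3 passed the test. STAT3, the main transcription factor of the pathway, lies at chr17:42313324-42388540. Its values were 235, 230 and 253 CPM in ACM and 230, 243 and 251 CPM in UCM, which overlapped closely. Its log2 fold change was -0.01, and its 95% confidence interval of -0.16 to 0.14 (adjusted p = 0.946 from edgeR) was the narrowest of the tested members. Phosphorylation, through which STAT3 is activated, is not visible in RNA levels.

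SOCS3, the feedback inhibitor that binds gp130 and JAK kinases, lies at chr17:78356778-78360077. It had 27.1, 25.7 and 30.5 CPM in ACM and 18.2, 28.2 and 28.7 CPM in UCM. UCM replicate 1 was the low library, and the other 2 UCM libraries lay within the range of ACM. SOCS3 had a log2 fold change of 0.15, with an interval of -0.23 to 0.53 (adjusted p = 0.644 from edgeR), and it was -0.03 without UCM replicate 1.

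Levels of different genes can be compared per length in TPM, and the order of the family changed between media. In UCM, STAT3 was the highest at 90.9 ± 2.59 TPM (SD, n = 3 here and in the values that follow). OSMR followed at 67.9 ± 3.76 TPM, LIF at 49.9 ± 34.4 TPM and IL6ST at 49.6 ± 6.11 TPM. Libraries of LIF ranged from 28.92 to 89.65 TPM and overlapped with those of all 3 of these genes, whereas those of STAT3, OSMR and IL6ST did not overlap each other. SOCS3 at 14.9 ± 2.71 TPM and IL6 at 11.6 ± 2.22 TPM overlapped as well, followed by LIFR at 5.27 ± 0.705 TPM and IL6R at 3.39 ± 0.467 TPM without overlap. IL11 at 0.07 to 0.22 TPM and CSF3 at 0 to 0.23 TPM were lowest and overlapped.

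In ACM the 4 highest genes were OSMR at 110 ± 10.7 TPM, LIF at 108 ± 36.2 TPM, IL6 at 93.7 ± 50.5 TPM and STAT3 at 90.6 ± 4.87 TPM. Neighbors in this order did not differ beyond the spread of their libraries. IL6ST came next at 51.0 ± 3.52 TPM, followed by SOCS3 at 17.2 ± 1.69 TPM and LIFR at 5.94 ± 1.57 TPM, each without overlap with its neighbors above. CSF3 ranged from 0.55 to 5.02 TPM and overlapped with both LIFR and IL6R, which averaged 1.30 ± 0.245 TPM. IL11 was lowest, at 0.1 to 0.42 TPM. IL6 thus stood below IL6ST in every UCM library and above it in every ACM library.

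The other 92 genes of the pathway were grouped into 7 lists by role, and 71 of them were tested. Of these, 10 were called higher and 0 lower by edgeR, against 3.35% and 2.21% of all tested genes. At an unadjusted p-value of 0.05 or less, 26 were higher and 4 lower, against 11.9% and 11.5% of all tested genes. DESeq2 called 15 higher and 0 lower, against 5.27% and 3.07%. The median log2 fold change of the 71 was 0.11, beside -0.01 for all tested genes. The number of calls higher depended on single libraries and was 3 without ACM replicate 2, 1 without UCM replicate 2 and 3 without UCM replicate 3.

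Factors that control IL6 transcription or the stability of its mRNA held 6 of the 10 calls, among 12 tested, with a median log2 fold change of 0.24. Calls higher made up 3.35% of all tested genes. At an unadjusted p-value of 0.05 or less, 7 of the 12 were higher and 0 lower, against 11.9% and 11.5% of all tested genes. This list, like the others, was typed by hand with earlier results of these data known. NFKBIZ, an atypical IκB protein that acts with NF-κB at the IL6 gene, was at 98.3 ± 28.7 CPM with ACM and 34.5 ± 9.03 CPM with UCM (SD, n = 3, log2 fold change 1.51, adjusted p = 0.0335). CEBPD and CEBPB encode C/EBP factors, the latter first described as a nuclear factor for IL6. CEBPD was at 141 ± 23.8 CPM with ACM and 59.9 ± 11.5 CPM with UCM (log2 fold change 1.23, adjusted p = 0.0121). CEBPB was at 296 ± 56.1 CPM with ACM and 175 ± 11.5 CPM with UCM (log2 fold change 0.75, adjusted p = 0.0151). ZC3H12A, or regnase-1, degrades IL6 mRNA, and thus acts in the opposite direction. Its level was 16.6 ± 1.63 CPM with ACM and 8.70 ± 2.20 CPM with UCM (log2 fold change 0.93, adjusted p = 0.0194).

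ATF4, a transcription factor of the integrated stress response, had a log2 fold change of 0.34 (adjusted p = 0.0177). The sixth call was ZFP36L1, an mRNA decay factor, at 0.31 (adjusted p = 0.0352). NF-κB subunits themselves were not called, with log2 fold changes of 0.13 for NFKB1 and 0.18 for RELA. CEBPD and CEBPB were not called without UCM replicate 2, and NFKBIZ was not called without ACM replicate 1, UCM replicate 2 or UCM replicate 3. NFKBIZ was also not called when genes with at least 1 count in total were tested (adjusted p = 0.109), and without replicate 1 of both conditions neither NFKBIZ (0.0828) nor CEBPB (0.0675) was called. ZC3H12A was the 1 gene of the 10 still called without UCM replicate 2, and was not called without ACM replicate 1, ACM replicate 2 or UCM replicate 3. ATF4 and ZFP36L1 were not called without ACM replicate 2, UCM replicate 2 or UCM replicate 3, and for ZFP36L1 also without ACM replicate 3.

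**Figure D4:**
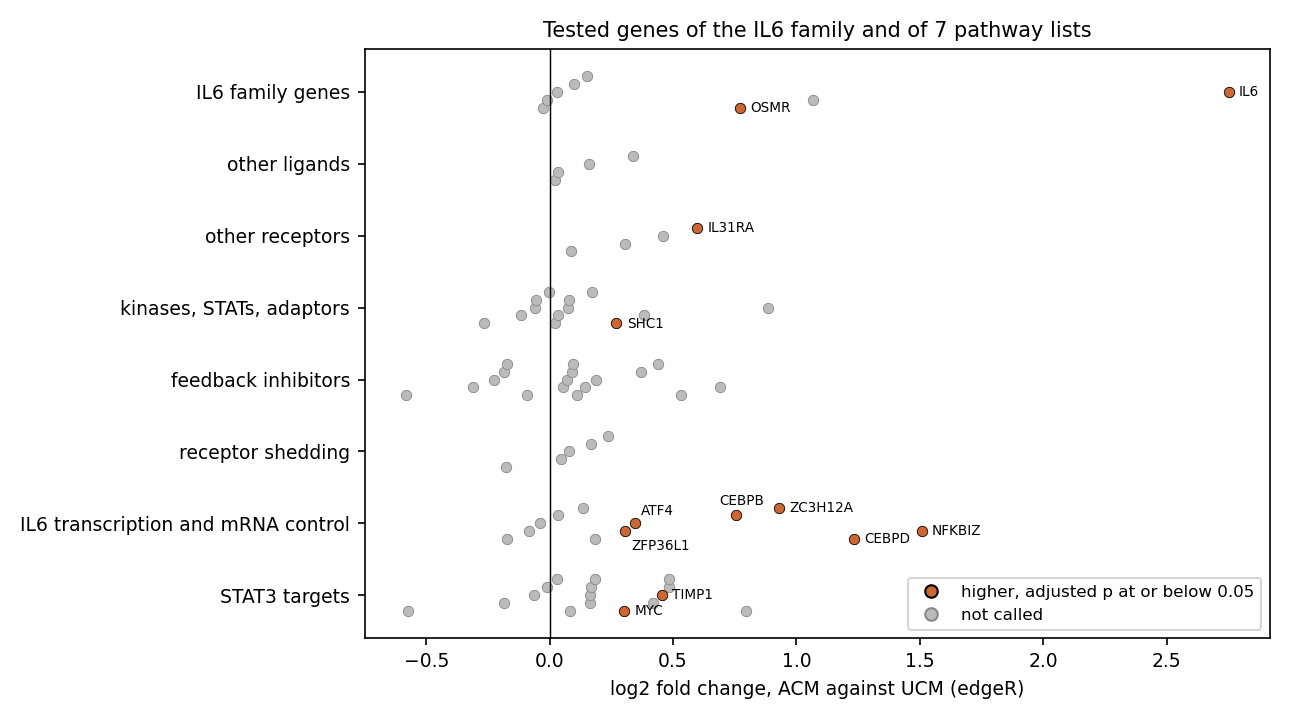
Log2 fold change of ACM against UCM from edgeR for the tested genes of the IL6 family and of 7 lists of other pathway genes, one row per list. Points are genes, spread vertically within a row only for legibility, and orange and named where the adjusted p-value was 0.05 or less. Calls are all to the right of 0, and 6 of the 10 outside the family lie in the row of IL6 transcription and mRNA control.

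Of the 8 other ligands, 4 were tested and none was called, where 3.35% of all tested genes were called higher and 2.21% lower. At an unadjusted p-value of 0.05 or less, 1 was higher and 0 lower, against 11.9% and 11.5% of all tested genes. These shares also apply to the lists that follow. The median log2 fold change of the ligands was 0.10. CTF1, or cardiotrophin 1, had a log2 fold change of 0.34 (adjusted p = 0.190). OSM and IL31, the ligands of OSMR, had no counts in any library. For 1 library taken alone, 0 counts allow an expected count of up to about 3 at 95% confidence. EBI3, a subunit of interleukin 27 and 35, was too low to be tested, with 9, 11 and 4 counts under ACM and 0, 1 and 0 under UCM.

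Of 5 other receptors, 4 were tested and 1 was called higher, beside 3.35% of all tested genes. Their median log2 fold change was 0.38. At an unadjusted p-value of 0.05 or less, 2 were higher and 0 lower. IL31RA, which pairs with OSMR to bind interleukin 31, rose from 25.3 to 38.3 CPM on average (log2 fold change 0.60, SE 0.12, adjusted p = 0.0189). It was not called without ACM replicate 2 or UCM replicate 2, with adjusted p-values of 0.0619 and 0.0812, nor by limma-trend on log2(TPM + 1), with a log2 difference of 0.46 (adjusted p = 0.112), nor with effective lengths as offsets (adjusted p = 0.0516). CSF3R, the receptor for CSF3, had no counts in any library. JAK1, JAK2 and TYK2, the kinases bound to gp130, had log2 fold changes of 0.02, -0.06 and 0.03 and were not called.

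SHC1, an adaptor to the RAS pathway, was the single call among 13 tested kinases, STATs and adaptors (log2 fold change 0.27, adjusted p = 0.0428). Calls higher made up 3.35% of all tested genes, so 1 call in a list of this size says little about the list. The median of these 13 genes was 0.03, and 4 were higher and 1 lower at an unadjusted p-value of 0.05 or less. SHC1 was not called without ACM replicate 2, ACM replicate 3, UCM replicate 2 or UCM replicate 3. Among 17 tested feedback inhibitors none was called, with 3 higher and 2 lower at an unadjusted p-value of 0.05 or less, near the shares of all tested genes, and a median of 0.09. SOCS2 had a log2 fold change of 0.69 (adjusted p = 0.133). The 5 genes of receptor shedding, which include ADAM17, the protease that releases soluble IL6R, gave no call, with 1 higher and 0 lower at an unadjusted p-value of 0.05 or less and a median of 0.08.

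Of 29 known STAT3 targets, 16 were tested and 2 were called higher, with a median log2 fold change of 0.17. Calls higher made up 3.35% of all tested genes. At an unadjusted p-value of 0.05 or less, 8 of the 16 were higher and 1 lower, against 11.9% and 11.5% of all tested genes. TIMP1, a metalloproteinase inhibitor, had a log2 fold change of 0.45 (adjusted p = 0.0493), and MYC, a growth regulator, had 0.30 (adjusted p = 0.0371). Neither was called without ACM replicate 2, ACM replicate 3, UCM replicate 2 or UCM replicate 3, and TIMP1 was also not called without UCM replicate 1. In addition, TIMP1, MYC, SHC1 and ZC3H12A were not called by limma-trend on log2(TPM + 1) or with effective lengths as offsets, with adjusted p-values from 0.0523 to 0.0811. The 13 targets not tested were mostly acute phase genes of the liver such as CRP and the fibrinogens, and 9 of them had no counts in any library.

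Across the 6 libraries, OSMR followed IL6 most closely among the members, with a Pearson r of 0.991 between their log2 CPM. LIF had an r of 0.840, and the remaining tested members lay between -0.344 for STAT3 and 0.347 for IL6ST. Over all tested genes with at least 1 CPM on average, the 5 closest to IL6 were ETV4, HLX, LAMB1, SEMA4B and TYMP, with r from 0.997 to 0.998. ETV4 is an ETS transcription factor and HLX a homeobox factor, while LAMB1 is a laminin chain, SEMA4B a semaphorin and TYMP thymidine phosphorylase. Their log2 fold changes were smaller than that of IL6, at 1.43, 0.63, 0.45, 1.00 and 0.65. These correlations describe 6 libraries in 2 conditions, scaled to library size, and carry no test. They share the difference between the media.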

How the data were processed

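Per the labels and the study's methods, polyA RNA of 6 BT-549 libraries was sequenced as 150 bp read pairs, and the authors used Trim Galore, STAR, GRCh38 and RSEM (versions and annotation not given in the sources used here). For each gene the authors deposited an expected count, an effective length and a TPM value. Their FPKM values and their table of DESeq2 fold changes and p-values were not used. Symbols and positions came from GENCODE 44, which held 62541 of 63140 gene identifiers when version numbers were ignored.

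Expected counts were rounded and fitted in R 4.3.3 with edgeR 4.0.16 (TMM, filterByExpr, robust quasi-likelihood, condition as the only term, Benjamini-Hochberg adjustment over 14451 genes). SE is the log2 fold change over the root of F. CPM was computed from the rounded counts and TMM-scaled library sizes. Scripts were tested on simulated data. Depth of 17135288 to 21053257 counts and 3 libraries per group set the precision, and intervals of count ratios cover counting error only. Alternatives used DESeq2 1.42.0, limma 3.58.1, other filters, a replicate block and left-out libraries.

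The members, lists and tests were chosen with earlier results of these data known. Named genes are all members, up to 5 called genes per pathway list by size of change, and the 5 genes closest to IL6 by Pearson r. ZFP36L1, SOCS2, CTF1, EBI3, NFKB1, RELA, the JAK genes, CD68, ADIPOR2 and genes without counts were named after their values were seen. The pathway and marker lists were typed by hand.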

Additional observations from a re-analysis of the deposited data

How the results depend on the processing

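Among 15 other ways of processing, 2 of them chosen after seeing the data (effective lengths as offsets, and neither replicate 1), OSMR was called higher in all 15 and IL6 in 9. The IL6 log2 fold change stayed between 2.20 and 3.17. Its adjusted p-value rose to 0.0841 when genes with at least 1 count in total were tested, to 0.111 with the replicate block, to 0.140 without replicate 1 of both conditions, and to at most 0.179 on leaving out a UCM library. LIF was called in none of the 15, with adjusted p-values of 0.106 to 0.623. Members called higher thus numbered 1 with the replicate block, 1 with neither replicate 1, and 1 to 2 with each library left out. Members called lower numbered 1 (IL6R) with limma-trend on log2(TPM + 1), 1 on log2(TPM + 0.1) and 1 with effective lengths as offsets. Other pathway genes called higher, 10 in the main comparison, numbered 18 with at least 1 count in total, 5 and 5 with limma-trend, 6 with the offsets, 17 with neither replicate 1, and 1 to 15 with each library left out. Of those 10 genes, 1 to 9 were still called with each library left out. Other pathway genes called lower numbered 1 with at least 1 count in total, 1 with the replicate block and 2 with neither replicate 1.

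Signs turned in genes that were not called. IL6R had a log2 fold change of -0.93 with 1 added to TPM, -1.32 with 0.1 added, -1.35 with the offsets, and -0.050 to 0.23 with each library left out. LIFR was at 0.13, 0.14 and 0.19 in the same 3 length-scaled settings and at -0.074 to 0.050 with each library left out. STAT3 was at 0.0036 with at least 10 counts in every library, at 0.020 with the offsets and at -0.056 to 0.030 with each library left out. SOCS3 was at -0.0031 with neither replicate 1 and at -0.025 to 0.27 with each library left out, and IL6ST was at -0.019 to 0.13. Causes were not tested, and each fit with a library left out holds 5 libraries.

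Over all genes, calls higher and lower numbered 484 and 320 in the main comparison. They were 762 and 444 with DESeq2, 1045 and 679 with at least 1 count in total, 210 and 121 with 1 added to TPM, 221 and 128 with 0.1 added, 272 and 134 with the offsets, 1017 and 726 with neither replicate 1, and with a library left out from 125 (without UCM replicate 2) to 738 higher and from 62 (without UCM replicate 3) to 572 lower, both most without UCM replicate 1. The replicate block gave 909 and 703, and NFKBIZ was not called with it (adjusted p = 0.145). Whether replicate numbers pair the libraries was not settled. Deviations of same-numbered libraries correlated at 0.318, 0.0347 and 0.177 for replicates 1, 2 and 3. The value for replicate 1 was the highest of all pairs, and ACM replicate 1 correlated at -0.223 and -0.156 with UCM replicates 2 and 3. ACM replicate 3, however, correlated best with UCM replicate 2 (0.196).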
